A study of Rattus norvegicus with 6 samples.

Results

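The immune cell miRNAs of the left ventricle are 8 microRNAs (miRNAs, small RNAs that pair with messenger RNAs and reduce the protein made from them) known from leukocytes and from inflammatory signalling, out of 758 rat miRNAs on the array. They were chosen by name, with earlier results of these data known. Each name was matched to the probe annotation of the arrays: rno-miR-142-3p, rno-miR-142-5p, rno-miR-223-3p, rno-miR-150-5p, rno-miR-342-3p, rno-miR-155-5p, rno-miR-146a-5p and rno-miR-146b-5p. All 8 were on the array, with 2 probes each, 16 of the 1806 probes. The samples were left ventricular myocardium of male Wistar rats on a high-fat diet for 20 weeks (3 samples, called obesity in the labels) and of male Wistar rats on normal chow (3 samples), with 1 array each. The labels give no age, and they do not say that each sample is a different rat. Each p-value therefore rests on sample-to-sample variation that could be technical.

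Leukocytes make a small part of the heart's RNA, and a few miRNAs mark them because they are made almost only in blood-forming lineages. miR-142 is shared by nearly all of these lineages, miR-223 marks granulocytes and monocytes, and miR-150 marks mature lymphocytes. miR-155 and the miR-146 pair are induced by inflammatory signalling, in the case of miR-155 and miR-146a through NF-kB. miR-155 amplifies the response, and miR-146a restrains it by lowering the signalling proteins Traf6 and Irak1. The miR-146 pair is also made by endothelial and muscle cells. In a bulk tissue sample, fewer cells of a type and less RNA per cell cannot be told apart.

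Mature sequences were found in RefSeq (GRCr8) for 7 of the 8 members. They are shown because the seed, bases 2 to 8 from the 5′ end, sets which messages a miRNA binds, and because likeness outside the seed bears on what an array probe can tell apart. Capitals mark the seed.
miR-142-3p: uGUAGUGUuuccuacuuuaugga
miR-142-5p: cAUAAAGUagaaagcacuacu
miR-223-3p: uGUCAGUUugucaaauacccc
miR-342-3p: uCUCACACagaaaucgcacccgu
miR-155-5p: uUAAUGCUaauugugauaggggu
miR-146a-5p: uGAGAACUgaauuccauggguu
miR-146b-5p: uGAGAACUgaauuccauaggcugu
These 7 sequences carried 6 distinct seeds. The miR-146 pair shared 1 seed, and no other member's seed was found in any of the 685 array miRNAs with a RefSeq sequence. By whole sequence, miR-146a-5p and miR-146b-5p were 3 edits (changed, added or lost bases) apart, while each other member was 7 to 10 edits from its nearest neighbour on the array.

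The miR-146 pair was set side by side with capitals at the bases where the 2 differ.
miR-146a-5p: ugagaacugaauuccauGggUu
miR-146b-5p: ugagaacugaauuccauAggCuGU
The first 17 bases were identical. The substitutions were G18A and U21C, with the miR-146a-5p base first and positions counted from 1 at the 5′ end, and miR-146b-5p was 2 bases longer. How far each probe also binds the other miRNA of the pair was not tested.

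Both miR-142 strands are cut from 1 hairpin, shown here with the 5p strand (bases 16 to 36) and then the 3p strand (bases 52 to 74) in capitals.
Mir142 hairpin: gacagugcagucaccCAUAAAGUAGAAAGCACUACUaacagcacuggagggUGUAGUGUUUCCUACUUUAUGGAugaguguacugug
Because they come from the same precursor, the 2 strands serve as a pair of readings of the same gene.

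The 7 mature sequences are placed on GRCr8 as follows. miR-142-3p lies at chr10:73055155-73055177 and miR-142-5p at chr10:73055119-73055139, both on the plus strand and within the bounds of the protein-coding gene Tspoap1. The next gene on one side is Mpo, which encodes the neutrophil enzyme myeloperoxidase. miR-223-3p lies at chrX:65151450-65151470 on the plus strand, within the lncRNA gene LOC120099372 and next to Vsig4, a complement receptor gene of tissue macrophages. miR-342-3p lies at chr6:133329715-133329737 on the plus strand, within the protein-coding gene Evl. miR-155-5p lies at chr11:37261117-37261139 on the plus strand, within its host lncRNA gene Mir155hg. miR-146a-5p lies at chr10:28350053-28350074 on the minus strand, within the lncRNA gene LOC134480673. miR-146b-5p lies at chr1:255144874-255144897 on the plus strand, within the bounds of C1h10orf95. Mir150 is also on chromosome 1 and overlaps no other listed gene. Whether these positions are exonic or intronic was not analysed here.

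The tissue label was checked against defining miRNAs. All 5 heart muscle miRNAs of the marker list (miR-1-3p, miR-133a-3p, miR-133b-3p, miR-208a-3p and miR-499-5p) were detected well above background on every array (6 of 6), and the liver miRNA miR-122-5p was so on 0 arrays. The neuronal miRNA miR-124-3p was also above background on 6 of 6. Before scaling, high-fat arrays had 75th percentiles of signal between 415 and 561, against 359 to 424 on chow arrays. A spike-in ratio of hybridisation stringency read by the scanner software lay between 0.974 and 1.94 on high-fat arrays and between 3.44 and 4.19 on chow arrays. The 3 high-fat arrays and chow replicate 1 shared slide 1, and chow replicates 2 and 3 were on slide 2. Because slide 2 held chow arrays only, a fit with slide as a block gives the same difference as slide 1 alone, and both rest on chow replicate 1 as the single chow array. They are 1 comparison, given below with the p-values of the 2 fits. The part of brightness, stringency and slide in the differences below was not tested beyond the scalings and slide comparisons given.

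All 8 members were well above background on all 6 arrays, so no member entered the test through 1 diet alone. None of the 8 passed the test of the diet difference over all 425 tested miRNAs (limma, Benjamini-Hochberg adjusted p between 0.409 and 0.982), against a background of 0.471% called. At an unadjusted p under 0.05 there was 1 of 8, miR-146a-5p, against 11.8% of all tested miRNAs, 4.24% with a higher and 7.53% with a lower high-fat signal. The high-fat and chow arrays did not overlap for 1 of 8, again miR-146a-5p, against 17.2% of all tested, and against 6.59% with the high-fat arrays above. Among the members 5 differences were above 0, against 39.3% of all tested, and 3 were below, with a median of 0.05 on the log2 scale, beside a median of -0.04 over all tested miRNAs. No member's difference was larger than 1.21-fold. The 95% intervals of the 8 members reached from -0.43 to 0.56 on the log2 scale, which allows a change of up to 1.35-fold downward or 1.47-fold upward for single members.

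**Figure D1:**
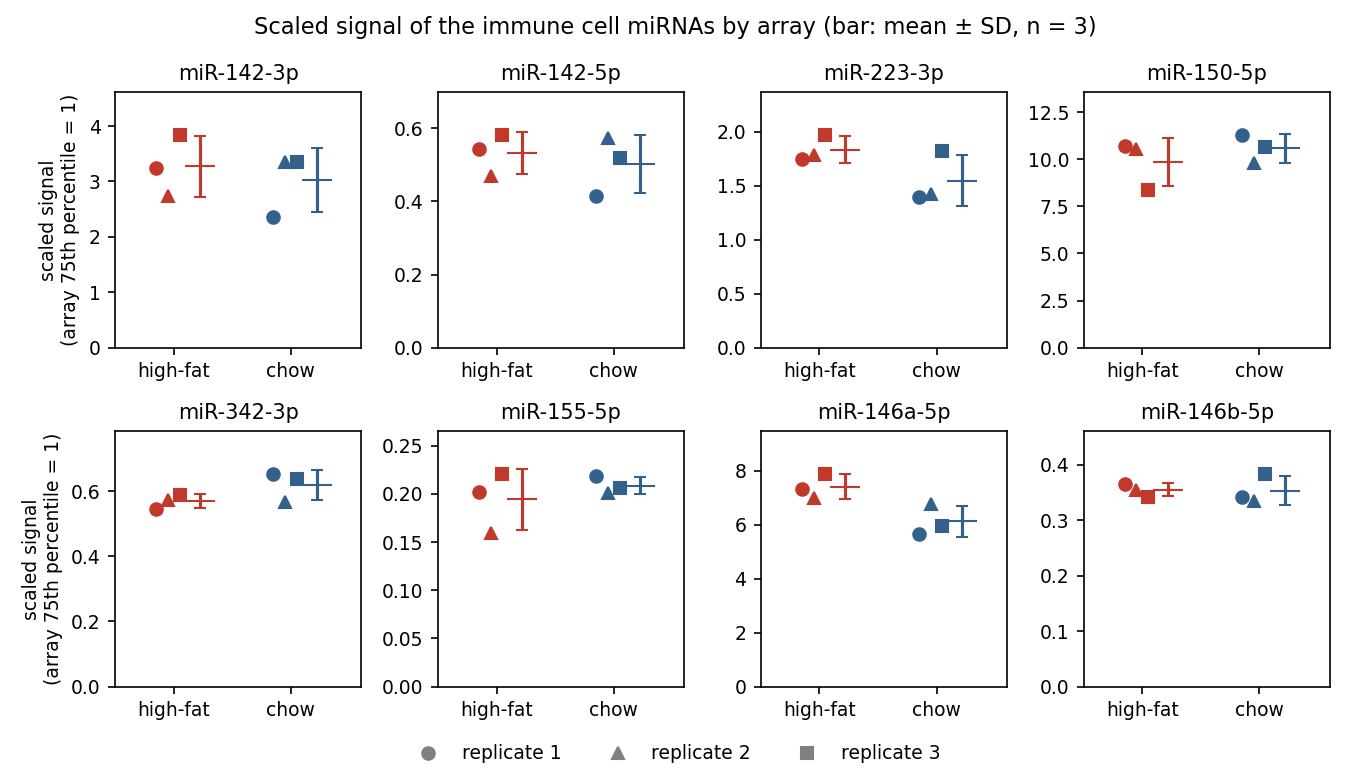
Scaled signal (array signal divided by the array's 75th percentile, so without unit) of each immune cell miRNA on the 3 high-fat arrays (red, left) and the 3 chow arrays (blue, right), with symbols by replicate number and bars for mean ± SD. The arrays of the 2 diets overlap for every member except miR-146a-5p, where the high-fat arrays lie between 6.99 and 7.89 and the chow arrays between 5.67 and 6.75.

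Values below are scaled signals, the processed signal of a probe divided by its array's 75th percentile. Probe brightness depends on sequence as well as on amount, so a member's signal is compared between arrays and not with that of another member. The pan-haematopoietic miR-142-3p, a regulator of leukocyte development, had scaled signals of 3.24, 2.75 and 3.85 on high-fat arrays, against 2.36, 3.36 and 3.35 on chow arrays. Chow replicate 1 was the lowest of the 6 and high-fat replicate 3 the highest, while the other 2 chow arrays lay above the other 2 high-fat arrays. The log2 difference was 0.12 ± 0.18 SE (limma adjusted p = 0.83). Without chow replicate 1 it was -0.05, and without high-fat replicate 3 it was -0.00018. On slide 1, against chow replicate 1, it was 0.46 (limma adjusted p = 0.447, or 0.417 with slide as a block).

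Its partner miR-142-5p, from the other arm of the hairpin shown above, had scaled signals of 0.544, 0.469 and 0.583 on high-fat arrays, against 0.416, 0.573 and 0.518 on chow arrays. The same 2 arrays were lowest and highest, chow replicate 1 and high-fat replicate 3. The log2 difference was 0.09 ± 0.15 SE (limma adjusted p = 0.855), and it was -0.04 without chow replicate 1. Within slide 1 the difference was 0.35 (limma adjusted p = 0.456, or 0.43 with slide as a block).

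The 2 strands moved together from array to array. The within-array log2 difference of miR-142-3p minus miR-142-5p was 2.62 ± 0.09 on high-fat arrays and 2.58 ± 0.10 on chow arrays (SD, n = 3 each). The diets differed in it by 0.03 (2-sided exact permutation p = 0.6, smallest possible p = 0.1). After each miRNA was centred on its own mean over the 6 arrays, the 2 strands differed by a root mean square of 0.080 on the log2 scale. This was the smallest of the 28 pairs of members. Outside the members, miR-29a-5p lay closer to miR-142-5p than its partner strand did, at 0.067, so such closeness was not particular to the hairpin. With the dimmer miR-142-3p probe in place of the brighter one, the strand difference between diets was -0.09, so its sign depended on the probe. It was 0.11 on slide 1 alone. The values from both probes lay within the spread between arrays.

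The myeloid miR-223-3p, which restrains granulocyte production and activation, had scaled signals of 1.75, 1.78 and 1.97 on high-fat arrays, against 1.39, 1.43 and 1.82 on chow arrays. It overlapped through chow replicate 3, which lay above high-fat replicates 1 and 2. Its log2 difference was 0.25 ± 0.13 SE (95% interval -0.05 to 0.56, limma adjusted p = 0.456). On slide 1 alone, against chow replicate 1, it was 0.40 (limma adjusted p = 0.378, or 0.417 with slide as a block). Its other probe gave 0.20. The difference stayed above 0 in all 25 alternatives of processing and array choice, between 0.13 and 0.62, and it passed the adjusted test in 0 of them. The alternatives of filter, floor, eBayes setting, replicate block and threshold left the difference itself unchanged, so they could not turn its sign. With array weights in the fit it was 0.27.

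Among lymphoid miRNAs, miR-150-5p, which lowers the transcription factor Myb in lymphocytes, had scaled signals of 10.7, 10.5 and 8.36 on high-fat arrays, against 11.3, 9.78 and 10.6 on chow arrays. High-fat replicate 3 was the lowest of the 6, while high-fat replicates 1 and 2 lay within the chow values. The log2 difference was -0.11 ± 0.13 SE (limma adjusted p = 0.773), and without high-fat replicate 3 it was 0.01. Slide 1 alone gave -0.21 (limma adjusted p = 0.657, or 0.686 with slide as a block). The partner strand miR-150-3p, the only partner outside miR-142 that was tested, gave -0.09 ± 0.14 SE (limma adjusted p = 0.855).

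miR-342-3p, made with the gene Evl and known from lymphoid and myeloid cells, had scaled signals of 0.545, 0.573 and 0.587 on high-fat arrays, against 0.653, 0.566 and 0.636 on chow arrays. Chow replicate 2 lay among the high-fat arrays, and the other chow arrays lay above them. Its log2 difference was -0.12 ± 0.10 SE (limma adjusted p = 0.663), and its 2 probes gave -0.12 both. It was -0.20 on slide 1 alone (limma adjusted p = 0.527, or 0.589 with slide as a block), -0.08 without chow replicate 1 and -0.18 without chow replicate 2.

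Of the inflammation-induced members, miR-155-5p had processed signals between 77.5 and 124. Its scaled signals were 0.202, 0.160 and 0.221 on high-fat arrays, against 0.219, 0.201 and 0.206 on chow arrays. High-fat replicate 2 was the lowest and high-fat replicate 3 the highest, so the chow arrays lay inside the range of the high-fat arrays. The log2 difference was -0.11 ± 0.14 SE (limma adjusted p = 0.773), and without high-fat replicate 2 it was 0.02. Within slide 1 the value was -0.18 (limma adjusted p = 0.763, or 0.76 with slide as a block).

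miR-146a-5p, the feedback miRNA of NF-kB signalling, had scaled signals of 7.33, 6.99 and 7.89 on high-fat arrays, against 5.67, 6.75 and 5.93 on chow arrays. All 3 high-fat arrays lay above all 3 chow arrays, with chow replicate 2 closest to them. The log2 difference was 0.28 ± 0.11 SE, a 1.21-fold higher signal (95% interval 0.02 to 0.53, limma unadjusted p = 0.0359), and it missed the threshold over all 425 (limma adjusted p = 0.409). On slide 1 alone it was 0.38 (limma adjusted p = 0.378, or 0.406 with slide as a block). It was above 0 in all 25 alternatives, between 0.16 and 0.65, with limma adjusted p between 0.131 and 0.802. Here too, the alternatives of filter, floor, eBayes setting, replicate block and threshold could not turn the sign. With array weights in the fit the difference was 0.30.

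miR-146b-5p, which shares the seed but comes from another chromosome, had scaled signals of 0.366, 0.355 and 0.343 on high-fat arrays, against 0.342, 0.335 and 0.384 on chow arrays. Chow arrays were both the lowest and the highest, and the whole range over 6 arrays was 1.15-fold. The log2 difference was 0.01 ± 0.10 SE (95% interval -0.22 to 0.24, limma adjusted p = 0.982), and it was 0.05 on slide 1 alone.

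The within-array log2 difference of miR-146a-5p minus miR-146b-5p was 4.38 ± 0.12 on high-fat arrays and 4.11 ± 0.20 on chow arrays (SD, n = 3 each). The diets differed in it by 0.27 (2-sided exact permutation p = 0.3, smallest possible p = 0.1). Chow replicate 2, at 4.33, lay among the high-fat arrays, which were at 4.32, 4.30 and 4.53. With 3 arrays per diet this test cannot reach 0.05. The p was at its smallest, 0.1, with normexp background correction and the 75th percentile (0.35) and with normexp and quantile normalization (0.31). It was also 0.1 without chow replicate 2 (0.38). That step removes the chow array that lay among the high-fat arrays, so the rest separate by construction. The difference was 0.20 without high-fat replicate 3 (permutation p = 0.4) and 0.19 without chow replicate 3 (permutation p = 0.5). The 4 probe combinations of the miR-146 pair gave 0.22 to 0.27.

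**Figure D2:**
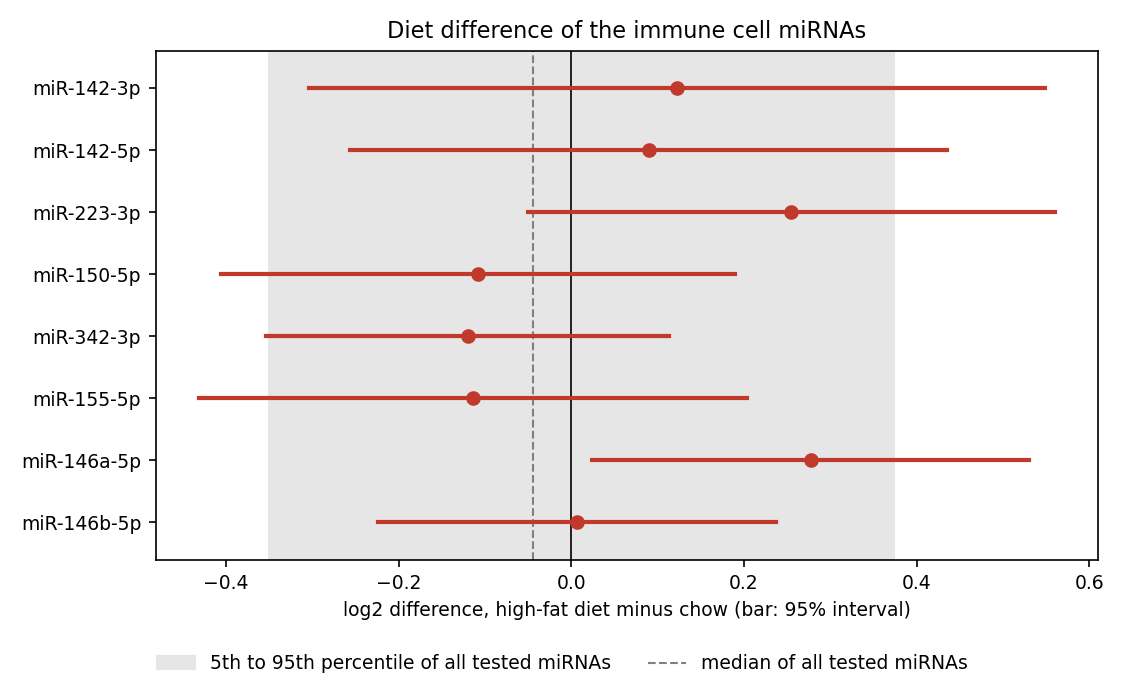
Log2 difference of the high-fat diet minus chow for each immune cell miRNA (points) with its 95% interval (bars). The grey band spans the 5th to the 95th percentile of all 425 tested miRNAs (-0.35 to 0.37) and the dashed line their median (-0.04). All 8 points lie inside the band, and the interval of miR-146a-5p is the 1 that leaves out 0.

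The 2 probes of a member agreed in sign for 8 of 8 members, and they differed by at most 0.12 on the log2 scale. That largest gap was for miR-142-3p, whose brighter probe gave 0.12 and whose other probe gave 0.00. The probes of miR-146a-5p gave 0.28 and 0.24, and with both the arrays of the diets did not overlap. After spots flagged as outliers were left out, the median coefficient of variation between spots of the same probe within an array was low. It lay between 1.8% for the brighter miR-142-3p probe and 9.9% for the brighter miR-223-3p probe. Leaving out flagged spots itself lowers this spread. For the dimmer probes of miR-142-5p and miR-342-3p as few as 4 of 8 spots were kept.

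**Figure D3:**
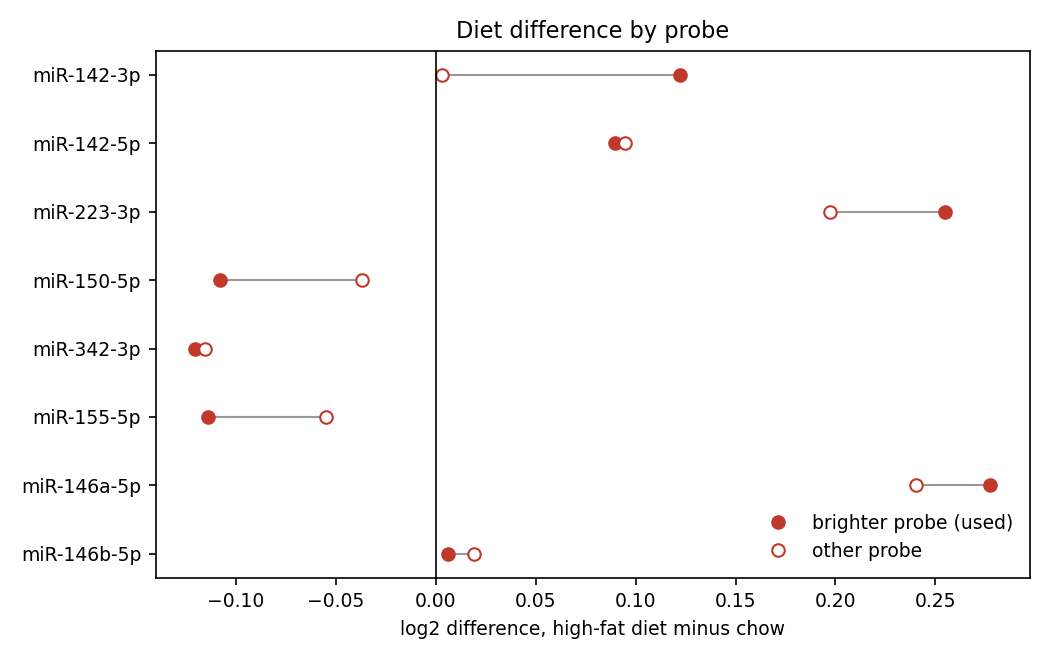
Log2 difference of the high-fat diet minus chow for the brighter probe of each immune cell miRNA (filled) and its other probe (open), joined by a line. The probes of each member lie on the same side of 0, from -0.12 for miR-342-3p to 0.28 for miR-146a-5p.

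The partner strands differed in detection. miR-142-5p and miR-150-3p were well above background on all 6 arrays beside miR-142-3p and miR-150-5p. miR-223-5p, miR-155-3p, miR-146a-3p and miR-146b-3p were well above background on 0 arrays. For miR-342-5p, 2 high-fat arrays and 0 chow arrays passed that mark, and it was not tested. Its brightest probe had a mean processed signal of 10.8 on high-fat arrays and 8.99 on chow arrays, and after scaling these means were 0.0211 for the high-fat diet and 0.0234 for chow. Why miR-342-5p passed that mark on high-fat arrays only was not tested, and no direction is given for this strand.

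The members differed in how much they varied within a diet. The within-diet SD on the log2 scale was 0.08 for miR-146b-5p, 0.09 for miR-342-3p and 0.11 for miR-146a-5p, and it was 0.20 for miR-142-5p and 0.27 for miR-142-3p. The median over all tested miRNAs was 0.16, with 4 members above it and 4 below. Over the 6 arrays the range was widest for miR-142-3p, at 1.63-fold. High-fat replicate 3 was the highest array for 5 of the 8 members and chow replicate 1 the lowest for 4.

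**Figure D4:**
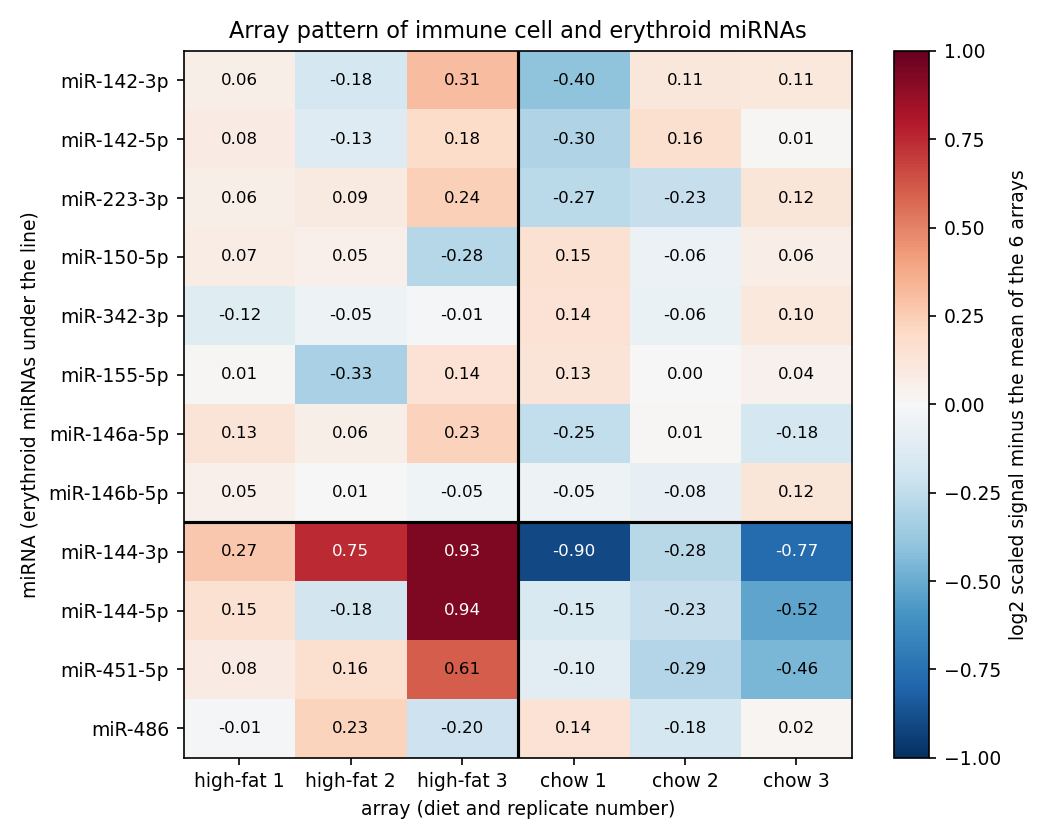
Log2 scaled signal minus the mean of the 6 arrays, for the 8 immune cell miRNAs (above the line) and 4 erythroid miRNAs (below it), with high-fat arrays left and chow arrays right. Both miR-142 strands, miR-223-3p and miR-146a-5p are lowest on chow replicate 1, and miR-144-3p ranges from -0.90 on that array to 0.93 on high-fat replicate 3.

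Markers of other cells are given beside the members, the red blood cell (erythroid) list first. The summed scaled signal of the 4 erythroid miRNAs, all above background on all 6 arrays, was 15.3 to 21.5 on high-fat arrays and 10.6 to 12.8 on chow arrays. That sum rests mostly on miR-451-5p, at 11.4 to 16.5 on high-fat arrays and 7.86 to 10.1 on chow arrays. miR-144-3p had a log2 difference of 1.30 ± 0.22 SE (limma adjusted p = 0.0615), miR-144-5p one of 0.61 ± 0.27 SE (limma adjusted p = 0.412), miR-451-5p one of 0.57 ± 0.17 SE (limma adjusted p = 0.279), and miR-486, which striated muscle makes too, one of 0.01 ± 0.14 SE. The summed scaled signal of the 8 members was 23.6 to 24.6 on high-fat arrays and 22.3 to 23.5 on chow arrays, and it rests mostly on the bright probes of miR-150-5p and miR-146a-5p. miR-144-3p and miR-451-5p, 2 of the 4, were each higher on all high-fat arrays than on all chow arrays, against 6.59% of all tested miRNAs. The part of erythroid RNA in the member values was not tested.

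The other cell lists had 0 miRNAs past the adjusted test (limma). Heart muscle miRNAs summed to 315 to 404 on high-fat arrays and 429 to 454 on chow arrays. That sum rests mostly on the bright probes of miR-133b-3p and miR-1-3p. Differences were below 0 for 5 of 5 (limma adjusted p from 0.279 to 0.93), against 258 of all 425 tested, and miR-208a-3p was at -0.04. For 3 of the 5, miR-133a-3p, miR-133b-3p and miR-499-5p, all high-fat arrays lay below all chow arrays, against 10.6% of all tested. Endothelial miR-126a-3p and miR-126a-5p summed to 61.9 to 73.1 on high-fat arrays and 68.8 to 72.3 on chow arrays. Fibroblast miR-199a-3p, miR-199a-5p and miR-214-3p, the last also in the immune regulation list below, summed to 11.2 to 12.6 on high-fat arrays and 12.1 to 12.7 on chow arrays. For 1 of these 3, miR-199a-5p, all high-fat arrays lay above all chow arrays, against 6.59% of all tested. The gap was narrow, with the lowest high-fat array at 2.254 and the highest chow array at 2.249. Smooth muscle miR-143-3p and miR-145-5p summed to 52.6 to 58.2 on high-fat arrays and 52.2 to 55.7 on chow arrays. The neuronal miR-124-3p differed by -0.35 ± 0.24 SE (limma adjusted p = 0.626).

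A further 16 miRNAs linked to immune regulation were on the array, and 13 were tested; miR-147, miR-187-3p and miR-511-5p were well above background on 0 arrays. None of the 13 passed over all tested miRNAs (limma), against 0.471% of all tested, and 1 had an unadjusted p under 0.05, against 11.8%. Their differences were above 0 for 7, against 39.3% of all tested, and below 0 for 6, with a median of 0.00 beside -0.04 over all tested. The 4 with the smallest unadjusted p are named, so they were chosen by this same comparison. miR-21-5p, abundant in activated fibroblasts and macrophages, differed by 0.27 ± 0.10 SE, and its high-fat arrays all lay above its chow arrays (limma adjusted p = 0.409). miR-326-3p, linked to T helper cell differentiation, differed by -0.29 ± 0.13 SE (limma adjusted p = 0.412). miR-181c-5p, of the lymphoid miR-181 family, differed by -0.21 ± 0.11 SE with all high-fat arrays below all chow arrays (limma adjusted p = 0.445). miR-132-3p, an early inflammatory miRNA, differed by 0.14 ± 0.11 SE (limma adjusted p = 0.633).

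For each member the tested miRNA outside the list with the most similar array pattern was found, by the root mean square difference of centred log2 signals over the 6 arrays. It was miR-29a-5p for both miR-142 strands, at 0.12 for miR-142-3p and 0.07 for miR-142-5p, beside a median over all others of 0.29 and 0.24. It was miR-151-5p for miR-223-3p (0.10), miR-125b-5p for miR-150-5p (0.04) and miR-664-2-5p for miR-342-3p (0.04). For miR-155-5p it was miR-421-3p (0.04), for miR-146a-5p miR-450a-5p (0.03) and for miR-146b-5p miR-107-3p (0.03). The nearest pattern is close by selection, and these values describe likeness on 6 arrays only.

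Scaling set the sign of some members. Without scaling between arrays every member's difference was higher by 0.37 on the log2 scale, the median of all tested miRNAs was 0.32, and 8 of 8 members were above 0. Relative to the median of all tested miRNAs, 5 of 8 members lay above it and 3 below it with scaling and without. miR-150-5p, miR-342-3p and miR-155-5p, below 0 with scaling, were the 3 whose sign turned.

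**Figure D5:**
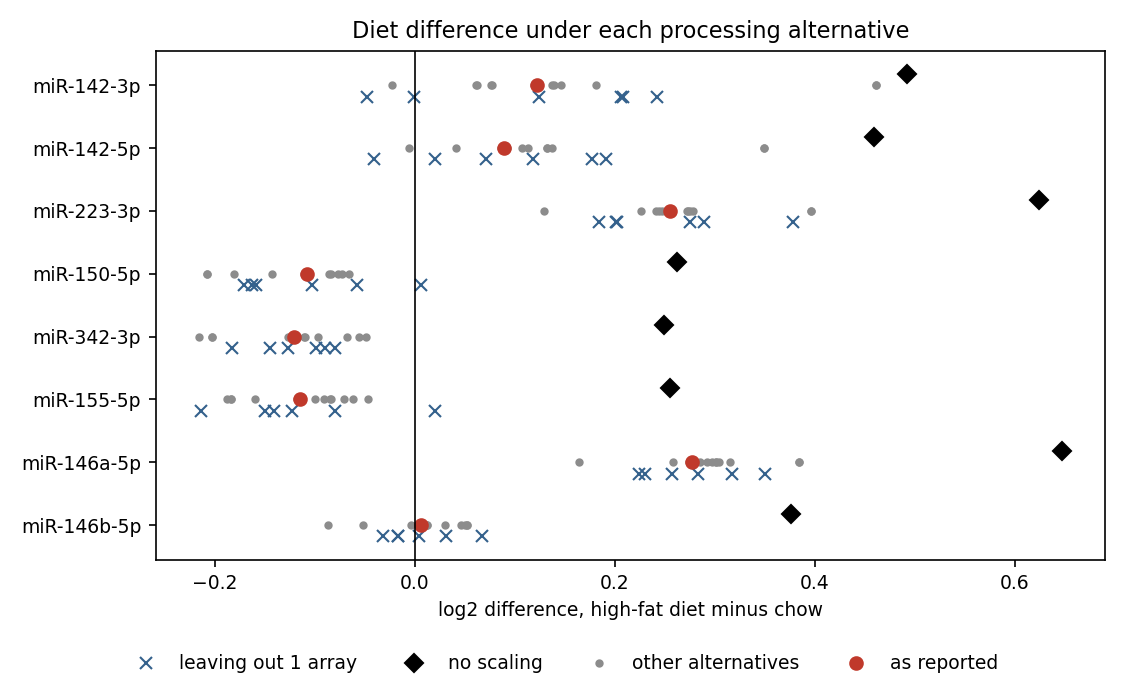
Log2 difference of the high-fat diet minus chow for each immune cell miRNA as reported (red circle), with each array left out (blue crosses), without scaling (black diamond) and under the other alternatives (grey). miR-146a-5p (0.16 to 0.65) and miR-223-3p (0.13 to 0.62) lie above 0 throughout, and miR-146b-5p lies on both sides of 0.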

How the data were processed

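Cy3-labelled total RNA from each sample was read on its own Agilent 1-colour miRNA array (labels' protocols). The deposited files hold linear intensity values per spot from Agilent Feature Extraction 11.0.1.1, the processed signal column of which is the background-subtracted one, per the file headers; the submitters' processing notes name the same software. A deposited value table holds log2 signals per miRNA that have 1 common median in all 6 columns, and it was used as an alternative; how the authors made it is not given in the sources used here.

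Spots flagged as outliers were left out and the rest averaged per probe. A probe counted as well above background when at least 50% of its spots were. The arrays were scaled so that the 75th percentile over the 757 probes above background on all 6 of them equalled 1. A floor was placed at the 1st percentile of detected scaled signals (-5.82 in log2) before log2 transformation. The brightest probe stood for a miRNA, and 425 miRNAs above background on at least 3 arrays were tested with limma 3.58.1 in R 4.3.3 (lmFit, eBayes, Benjamini-Hochberg over all 425, threshold 0.05, no covariate). Within-array differences between members were compared with 2-sided exact permutation tests. On slide 1 alone, the single chow array is assumed to vary like the high-fat arrays. The fit was tested on simulated data. The normexp alternative used the median spot signal and the local median background. Other alternatives changed the background correction, scaling, probe choice, filter, floor, eBayes setting, array weights, slide term and array set. The members and lists were chosen with earlier results of these data known; all members, their partner strands, the nearest patterns, the 4 of a further immune list with the smallest unadjusted p and the cell markers were named by 1 rule. Sequences and neighbouring genes are from RefSeq (GRCr8). Array number, 3 per diet, limits the precision.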

Additional observations from a re-analysis of the deposited data

How the results depend on the processing

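None of the 8 members passed the adjusted test (limma) in any of the 25 alternatives, and miR-146a-5p and miR-223-3p stayed above 0 in all of them. The other 6 members turned sign under at least 1, some where all miRNAs shifted together. Alternatives of filter, floor, eBayes setting, replicate block and threshold left every member's difference unchanged and could not turn a sign. Array weights in the fit did change the differences, for example to 0.181 for miR-142-3p and 0.002 for miR-146b-5p, but turned no member's sign. Without scaling, miR-150-5p was 0.26, miR-342-3p 0.25 and miR-155-5p 0.26, each still below the median of all tested (0.32), and miR-342-3p turned sign in no other alternative. With the software's total signal, miR-142-3p was -0.0226, miR-142-5p -0.00597 and miR-146b-5p -0.0861, all above that setting's median of all tested (-0.13). miR-146b-5p was also -0.0512 with normexp and the 75th percentile (median of all tested -0.14) and -0.00345 with normexp and quantile normalization. The difference of the miR-142 strands was -0.0306 with normexp and quantile normalization, -0.0549 with quantile normalization, -0.0294 with the mean over probes, -0.0166 with the software's total signal and -0.0768 with the authors' value table, and it was 0.0974 with normexp and the 75th percentile and 0.112 within slide 1. The cause was not tested.

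With 1 array left out at a time, the differences ranged from -0.0472 to 0.243 for miR-142-3p, -0.0402 to 0.191 for miR-142-5p, -0.0317 to 0.0674 for miR-146b-5p, -0.182 to -0.0792 for miR-342-3p, -0.17 to 0.00612 for miR-150-5p and -0.213 to 0.0209 for miR-155-5p. They ranged from -0.0206 to 0.0879 for the miR-142 strand difference and from 0.19 to 0.382 for the miR-146 pair difference. The count passing over all 425 tested miRNAs, 2 as reported, ranged from 0 to 3 in these fits. It was 8 with normexp and the 75th percentile, 5 without scaling, 1 with the mean over probes, and 0 with quantile normalization, the authors' value table, no filter, the higher floor, slide as a block and slide 1 alone.

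The diets share replicate numbers, but same-numbered arrays deviated together with correlations of 0.22, -0.01 and 0.05, so the numbers were not taken as pairs. Not every array correlated best with its own number. With the replicate block 0 members and 3 of all tested miRNAs passed, and miR-146a-5p had a limma adjusted p of 0.513. Depth in the sense of signal over background did not remove any member, as all 8 were above background on all 6 arrays.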
